A study of Mus musculus with 9 samples.

Results

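The genes described here are the 8 mouse genes of the troponin complex: Tnnc1 and Tnnc2 for troponin C, Tnni1, Tnni2 and Tnni3 for troponin I, and Tnnt1, Tnnt2 and Tnnt3 for troponin T. They were taken by symbol, with every probe set annotated to one of them, which gave 12 of 45101 probe sets on the arrays. Each troponin gene was represented by its brightest probe set, so that 8 of 18193 genes with a probe set of their own were members. RNA was measured in 3 groups of 3 Affymetrix arrays each. Mouse embryonic fibroblasts (MEF), the starting cells, were isolated from C57BL/6 embryos at embryonic day 13.5 and received no cocktail. Chemically induced cardiomyocyte-like cells (CiCM) were MEF exposed to 10 µM CHIR99021, 10 µM RepSox, 50 µM forskolin, 0.5 mM VPA, 5 µM Parnate and 1 µM TTNPB, from which beating clusters were picked on day 24. Cardiomyocytes (CM) were isolated from mouse hearts, with age, strain and chamber not given in the sources used here. A CiCM sample therefore holds whatever cells a picked cluster held, selected for contraction. All samples are bulk RNA, so fewer cells of a type and less RNA per cell cannot be told apart. The labels name the samples of a group biological replicates without saying what separates them.

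Troponin sits on the thin filament of striated muscle and makes contraction depend on calcium. Troponin C binds calcium, troponin I holds back the interaction of actin with myosin until calcium is bound, and troponin T anchors the complex to tropomyosin. Striated muscles use different genes for each subunit. Tnnc1 serves heart and slow skeletal fibres and Tnnc2 fast skeletal fibres. Tnni3 is the troponin I of the mature heart, Tnni1 that of slow fibres and of the fetal heart, and Tnni2 that of fast fibres. Tnnt2 is the cardiac troponin T, which embryonic skeletal muscle also uses for a time, while Tnnt1 and Tnnt3 belong to slow and fast fibres.

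The CiCM samples were high in troponin genes used by heart, slow and fast muscle, with the cardiac troponin I gene Tnni3 as the exception. Among these, Tnnc1 serves both heart and slow fibres, and Tnnt2 both heart and, for a time, embryonic skeletal muscle. Whether the same cells carried these genes was not tested, the samples being bulk RNA. CiCM exceeded MEF in all 8 troponin genes by the rule for a call, a limma adjusted p below 0.05 with a log2 difference of 1 or more. That rule called 11.6% of the 12559 genes tested higher and 12.2% lower in the same comparison (23.8% in all). In CM, 5 of the 8 were called higher than in MEF, against 22.1% of all genes, and 0 were called lower, against 21.8% (43.9% in all). Between CiCM and CM, 5 were called higher in CiCM, against 16.5%, and 2 were called lower, against 19.0% (35.5% in all). The arrays of both groups did not overlap for 8 of 8 genes between CiCM and MEF (68.5% of all genes), for 5 of 8 between CM and MEF (75.2%) and for 8 of 8 between CiCM and CM (67.9%). Across the members the median difference was 9.06 for CiCM minus MEF, 4.01 for CM minus MEF and 5.82 for CiCM minus CM, while the median of all genes was -0.03 in each comparison. A gene was tested where the mean of its highest group reached 6.58, the median of the table. Tnnc2, Tnni1 and Tnnt3 reached that line through CiCM alone and Tnni3 through CM alone, so that these genes had to differ between some groups. Without the line the troponin counts were the same.

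**Figure D1:**
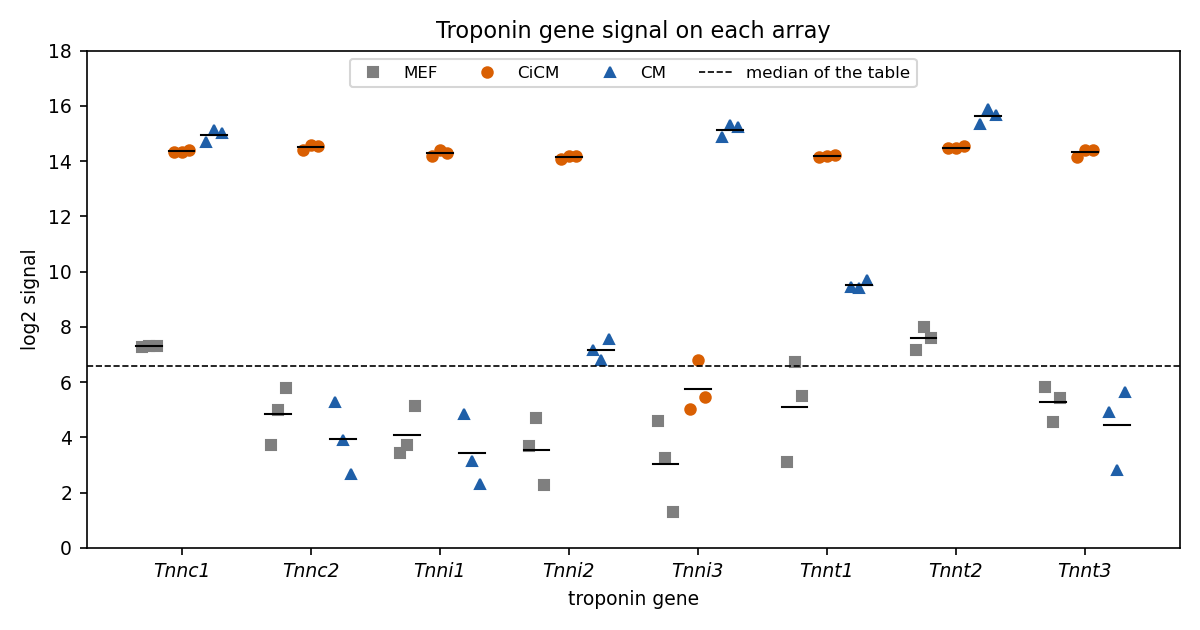
Log2 signal (vertical axis) of the representative probe set of each troponin gene on 3 MEF, 3 CiCM and 3 CM arrays; each point is an array, each short bar a group mean, and the dashed line is the median of the table, 6.58. CiCM arrays lie between 14.07 and 14.60 for 7 genes and between 5.02 and 6.80 for Tnni3.

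The letters ahead of the gene starts are shown for 5 members that between them cover the patterns found: high in both CiCM and CM (Tnnc1 and Tnnt2), high in CiCM alone (Tnni1), high in CM alone (Tnni3), and high in CiCM with a lower level in CM (Tnnt1, the gene next to Tnni3). Each is the 250 bases before a start in RefSeq, build GRCm38.p6, read 5′ to 3′ on the gene's strand. Capitals mark matches, on either strand, to the E-box CANNTG, to CATTCC (the MCAT element), to TATAAA and to GATAA.
Tnnc1, chr14:31208062-31208311, + strand: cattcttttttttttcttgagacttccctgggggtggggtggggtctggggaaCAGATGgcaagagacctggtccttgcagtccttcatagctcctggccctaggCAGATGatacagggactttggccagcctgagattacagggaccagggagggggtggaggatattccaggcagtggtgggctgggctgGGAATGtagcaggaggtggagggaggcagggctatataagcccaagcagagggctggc
Tnnt2, chr1:135836084-135836333, + strand: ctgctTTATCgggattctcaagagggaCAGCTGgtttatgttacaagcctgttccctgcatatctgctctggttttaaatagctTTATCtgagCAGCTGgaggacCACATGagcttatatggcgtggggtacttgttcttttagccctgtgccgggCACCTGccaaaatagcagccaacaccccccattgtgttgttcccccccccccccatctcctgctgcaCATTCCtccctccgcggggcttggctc
Tnni1, chr1:135799171-135799420, + strand: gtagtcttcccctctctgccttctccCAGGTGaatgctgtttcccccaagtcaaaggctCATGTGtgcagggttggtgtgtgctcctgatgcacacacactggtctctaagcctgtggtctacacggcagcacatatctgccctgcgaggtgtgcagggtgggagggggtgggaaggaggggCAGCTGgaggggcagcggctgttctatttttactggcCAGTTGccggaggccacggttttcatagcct
Tnni3, chr7:4522529-4522778, - strand: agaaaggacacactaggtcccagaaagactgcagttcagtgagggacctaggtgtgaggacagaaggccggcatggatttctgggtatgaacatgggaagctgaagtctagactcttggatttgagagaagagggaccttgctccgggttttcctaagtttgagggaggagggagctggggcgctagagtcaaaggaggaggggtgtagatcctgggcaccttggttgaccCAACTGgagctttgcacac
Tnnt1, chr7:4515976-4516225, - strand: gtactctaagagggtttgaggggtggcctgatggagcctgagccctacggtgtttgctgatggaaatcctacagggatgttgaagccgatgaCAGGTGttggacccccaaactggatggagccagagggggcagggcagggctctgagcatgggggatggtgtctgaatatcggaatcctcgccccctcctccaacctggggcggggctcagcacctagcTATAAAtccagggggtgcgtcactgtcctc
For Tnnt2 and Tnni1, which have 2 entries each, the entry farthest upstream is shown. Of the 8 genes 6 had an entry; Tnni2 and Tnnt3 are named only. The window of Tnnt2 held 4 E-boxes, 1 MCAT element and 2 GATAA matches, and that of Tnnc1 held 2 E-boxes and 1 MCAT element. Tnni1 held 4 E-boxes, Tnni3 and Tnnt1 held 1 each, and Tnnt1 also held TATAAA, ending 25 bases before the start. The second window of Tnnt2, not printed, held 1 E-box and no MCAT or GATAA match, and that of Tnni1 held 2 E-boxes. The window of Tnnc2, at chr2:164779735-164779984 on the - strand and not printed, held 2 E-boxes. Among 32841 such windows of all genes, 66.2% held an E-box, 12.6% an MCAT element, 12.4% TATAAA and 22.6% GATAA, each at least once. No match to the MEF2 motif or the CArG box was found in the windows of these 6 genes, and 2.92% and 1.47% of all windows held one. A match describes letters and not binding.

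Among the troponin C genes, the heart and slow form was high in CiCM and CM, and the fast form in CiCM alone. Tnnc1 (Entrez Gene 21924) was at 7.28, 7.32 and 7.29 in MEF, at 14.33, 14.34 and 14.39 in CiCM and at 14.71, 15.12 and 15.03 in CM (log2 signal, replicates 1 to 3). The groups did not overlap, with CM highest and MEF lowest. Its log2 difference was 7.06 ± 0.10 for CiCM minus MEF (SE, limma adjusted p = 5.79e-11) and 7.65 ± 0.10 for CM minus MEF (limma adjusted p = 2.42e-11), the same SE because all groups shared 1 estimate of spread. CiCM lay below CM by a difference of -0.60 (95% interval -0.82 to -0.37, limma adjusted p = 0.000464), which is under the minimum of 1 and was not called. With arrays levelled on their hybridisation controls that difference was 0.0057.

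Tnnc2 (Entrez Gene 21925), the fast fibre form, was at 3.73, 5.00 and 5.79 in MEF, at 14.40, 14.60 and 14.56 in CiCM and at 5.26, 3.91 and 2.67 in CM (log2 signal). MEF and CM overlapped, all below the median of the table, and the CiCM arrays stood alone. The difference was 9.68 ± 0.62 for CiCM minus MEF and 10.57 ± 0.62 for CiCM minus CM (SE, limma adjusted p = 5.98e-07 and 1.96e-07). Log2 values this low are noisy, and with 32 added to the linear signals the same differences were 8.54 and 8.87. CM and MEF differed by -0.89 (95% interval -2.27 to 0.49, limma adjusted p = 0.220), which became -1.55 without CM replicate 1 (limma adjusted p = 0.0210) and -0.33 with 32 added.

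Among the troponin I genes, the cardiac form was high in CM and the slow and fast forms in CiCM. Tnni3 (Entrez Gene 21954), the cardiac form, was at 4.60, 3.24 and 1.31 in MEF, at 5.02, 6.80 and 5.48 in CiCM and at 14.87, 15.33 and 15.25 in CM (log2 signal). The CM arrays stood far above both other groups, while of the CiCM arrays replicate 2 alone was above the median of the table. The difference was 12.10 ± 0.70 for CM minus MEF and -9.38 ± 0.70 for CiCM minus CM (SE, limma adjusted p = 9.23e-08 and 1.11e-06), or 9.72 and -8.67 with 32 added. CiCM were above MEF by 2.72 (95% interval 1.16 to 4.28, limma adjusted p = 0.00806). That call rested on low signals, at 1.05 with 32 added and, no longer called, 0.43 with the largest of the 3 constants tried.

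Tnni1 (Entrez Gene 21952), the slow fibre and fetal heart form, had the reverse pattern. It was at 3.42, 3.73 and 5.12 in MEF, at 14.20, 14.40 and 14.32 in CiCM and at 4.86, 3.13 and 2.30 in CM (log2 signal). CM and MEF overlapped below the median of the table, and every CiCM array was above 14. The difference was 10.22 ± 0.61 for CiCM minus MEF and 10.87 ± 0.61 for CiCM minus CM (SE, limma adjusted p = 3.48e-07 and 1.35e-07), or 8.65 and 8.81 with 32 added. CM minus MEF was -0.66 (95% interval -2.00 to 0.69, limma adjusted p = 0.351), and without CM replicate 1 it was -1.37 (limma adjusted p = 0.0195).

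Tnni2 (Entrez Gene 21953), the fast fibre form, was at 3.67, 4.70 and 2.27 in MEF, at 14.07, 14.18 and 14.17 in CiCM and at 7.15, 6.81 and 7.55 in CM (log2 signal). The groups did not overlap, with CM between the others and above the median of the table. CiCM exceeded MEF by 10.59 ± 0.48 and CM by 6.97 ± 0.48 (SE, limma adjusted p = 4.82e-08 and 6.10e-07). CM exceeded MEF by 3.62 ± 0.48 (limma adjusted p = 5.23e-05), or by 1.95 with 32 added and by 0.94, under the minimum, with the largest of the 3 constants tried. A further pair of probe sets for Tnni2 was dimmer. Probe set 1438609_x_at was at 13.42, 13.49 and 13.18 in CiCM and at 6.29, 6.88 and 4.68 in CM, and 1438608_at at 6.79, 6.34 and 6.63 in CiCM and at 1.43, 3.14 and 2.13 in CM. With every probe set fitted as a feature of its own (26547 tested), CiCM exceeded MEF in all 3 Tnni2 probe sets, by 10.59, 9.24 and 5.27. CM exceeded MEF in 2 of the 3, by 3.62 and 1.83, while 1438608_at differed by 0.92 (95% interval -2.14 to 3.97, limma adjusted p = 0.569).

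**Figure D2:**
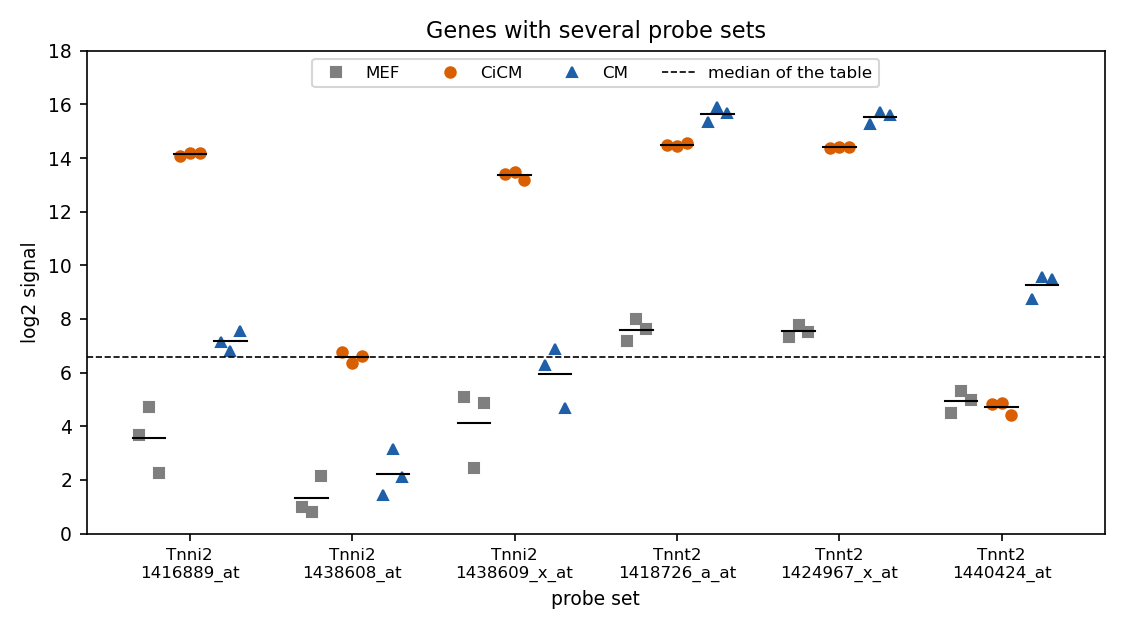
Log2 signal (vertical axis) of the 3 probe sets of Tnni2 and the 3 of Tnnt2 on each array, with group means as short bars and the median of the table, 6.58, as a dashed line. For Tnnt2, 1440424_at lies at 4.43 to 4.86 in CiCM, where the other probe sets lie above 14.

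All 3 troponin T genes were high in CiCM. Tnnt2 (Entrez Gene 21956), the cardiac form, was at 7.18, 7.99 and 7.61 in MEF, at 14.48, 14.46 and 14.55 in CiCM and at 15.36, 15.89 and 15.68 in CM (log2 signal). The groups did not overlap, and CM was highest. The difference was 6.90 ± 0.19 for CiCM minus MEF and 8.05 ± 0.19 for CM minus MEF (SE, limma adjusted p = 1.48e-09 and 2.19e-10). CiCM minus CM was -1.15 ± 0.19 (limma adjusted p = 0.000333), a call that depended on the scaling of the arrays, at -0.59 after quantile normalization, -0.84 with arrays centred on their medians and -0.54 with arrays levelled on hybridisation controls.

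The probe sets of Tnnt2 disagreed. Probe set 1424967_x_at followed the representative 1418726_a_at, at 14.37, 14.43 and 14.43 in CiCM and 15.25, 15.70 and 15.60 in CM. Probe set 1440424_at was at 4.50, 5.33 and 4.99 in MEF, at 4.85, 4.86 and 4.43 in CiCM and at 8.75, 9.57 and 9.49 in CM. On it CiCM and MEF overlapped and differed by -0.22 (95% interval -1.04 to 0.60, limma adjusted p = 0.655 over probe sets), whereas CM exceeded MEF by 4.33 and CiCM lay below CM by -4.56 (limma adjusted p = 1.65e-06 and 1.99e-06). Averaged over the 3 probe sets, Tnnt2 differed by 4.52 for CiCM minus MEF and by -2.27 for CiCM minus CM. In Affymetrix names, _a marks a probe set that matches several transcripts of a gene and _x one with probes that may match other sequences. The part of the transcript that each probe set covers was not analysed here.

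Tnnt1 (Entrez Gene 21955), the slow fibre form, was at 3.10, 6.74 and 5.50 in MEF, at 14.15, 14.19 and 14.22 in CiCM and at 9.46, 9.42 and 9.68 in CM (log2 signal). The groups did not overlap, and CM stood between the others. The difference was 9.07 ± 0.67 for CiCM minus MEF, 4.41 ± 0.67 for CM minus MEF and 4.66 ± 0.67 for CiCM minus CM (SE, limma adjusted p = 1.75e-06, 0.000161 and 0.000138), or 7.94, 3.34 and 4.60 with 32 added. Tnnt3 (Entrez Gene 21957), the fast fibre form, was at 5.82, 4.56 and 5.43 in MEF, at 14.16, 14.40 and 14.41 in CiCM and at 4.91, 2.82 and 5.63 in CM. CM and MEF overlapped, all under the median of the table. CiCM exceeded MEF by 9.05 ± 0.59 and CM by 9.87 ± 0.59 (SE, limma adjusted p = 6.94e-07 and 2.30e-07), or by 8.16 and 8.46 with 32 added. CM minus MEF was -0.82 (95% interval -2.14 to 0.50, limma adjusted p = 0.238), and -1.41 without CM replicate 3 (limma adjusted p = 0.0448).

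**Figure D3:**
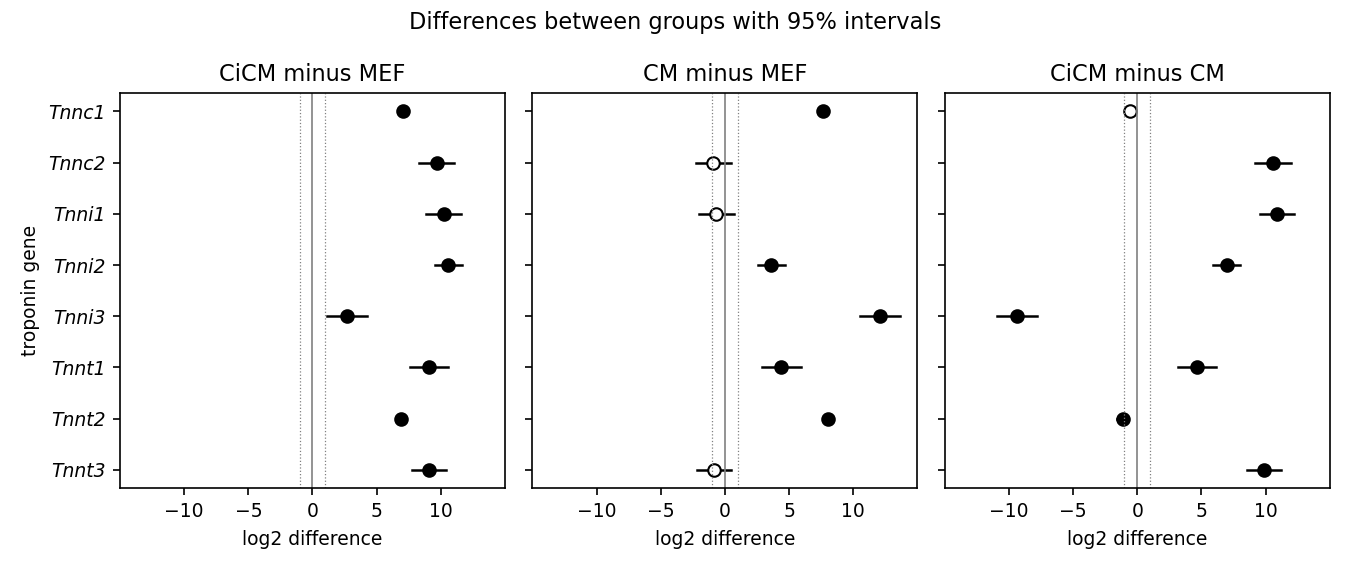
Log2 difference (horizontal axis) of each troponin gene in the 3 comparisons, with 95% intervals from limma; filled circles are called genes, open circles genes not called, and dotted lines stand at a difference of 1 in either direction. Tnni3 is the gene with the lowest difference in CiCM minus MEF (2.72) and in CiCM minus CM (-9.38), and the highest in CM minus MEF (12.10).

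The spread between arrays depended on the level. In CiCM the SD over 3 arrays was between 0.03 and 0.14 for the 7 genes above 14, and 0.93 for Tnni3. In CM it was between 0.14 and 0.37 for Tnnc1, Tnni2, Tnni3, Tnnt1 and Tnnt2, and between 1.30 and 1.46 for Tnnc2, Tnni1 and Tnnt3, which lay below the median of the table. In MEF it ran from 0.02 for Tnnc1 to 1.85 for Tnnt1. Through the shared estimate, the MEF spread also enters the SE of CiCM minus CM. CM replicate 1 was lowest of the CM arrays for Tnnc1, Tnni3 and Tnnt2 and highest for Tnnc2 and Tnni1. That array also stood apart in some of 8 atrial markers, whose summed log2 signal ran from 12.84 to 17.08 over CM. Sln, the most variable of them, was at 14.95 there against 8.14 and 2.97 on the other CM arrays. Nr2f2 differed less (10.77 against 9.68 and 9.84), and Kcna5 alone was lowest there (10.24 against 10.68 and 10.60). Without CM replicate 1, CM minus MEF was 12.24 for Tnni3, 8.19 for Tnnt2 and 7.78 for Tnnc1, and CiCM minus CM was 11.59 for Tnni1. The 7 genes above 14 in CiCM lay within 14.07 to 14.60, near the top of a table whose highest value was 15.94, and whether such bright probes still respond in proportion was not tested.

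Within an array, the balance between isoforms of a subunit does not depend on the scaling of that array, although the level of such a balance also holds the brightness of 2 different probe sets and is not read here. Its shift between groups was compared for 7 pairs in 3 comparisons, 21 tests in all. For troponin I, Tnni3 minus Tnni1 was -9.18, -7.60 and -8.84 in CiCM and 10.00, 12.19 and 12.94 in CM (log2 difference within an array). CiCM minus CM was a shift of -20.25 toward Tnni1, or -17.48 with 32 added. Tnni3 minus Tnni2 shifted by -16.35 toward Tnni2. For troponin C, Tnnc1 minus Tnnc2 was -0.07, -0.27 and -0.16 in CiCM and 9.44, 11.20 and 12.36 in CM, a shift of -11.17 toward the fast gene. For troponin T, Tnnt2 minus Tnnt3 shifted by -11.02 and Tnnt2 minus Tnnt1 by -5.81 between CM and CiCM, both away from the cardiac gene. Each of these shifts had an exact permutation p of 0.1 (2-sided, 3 against 3 arrays, adjusted p = 0.111 over 21 tests), the smallest the design allows, as did 19 of the 21 in all, so none could pass the threshold.

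The balance of slow and fast genes overlapped between MEF and CiCM. Tnni1 minus Tnni2 shifted by -0.38 and Tnnt1 minus Tnnt3 by 0.02 between MEF and CiCM (exact permutation p = 1 for each, 2-sided, 3 against 3 arrays), with wide MEF values of -0.98 to 2.85 and -2.72 to 2.18. With probe sets averaged the first of these was 1.85. Between MEF and CM the slow and fast genes parted in opposite ways in the subunits, by -4.28 for Tnni1 minus Tnni2 and by 5.23 for Tnnt1 minus Tnnt3 (exact permutation p = 0.1 for each). These sizes rested on low signals, at -2.11 and 3.64 with 32 added and at -0.997 and 2.40 with the largest of the 3 constants tried. In CM, then, the fast gene stood higher than in MEF for troponin I (Tnni2) and the slow gene for troponin T (Tnnt1).

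**Figure D4:**
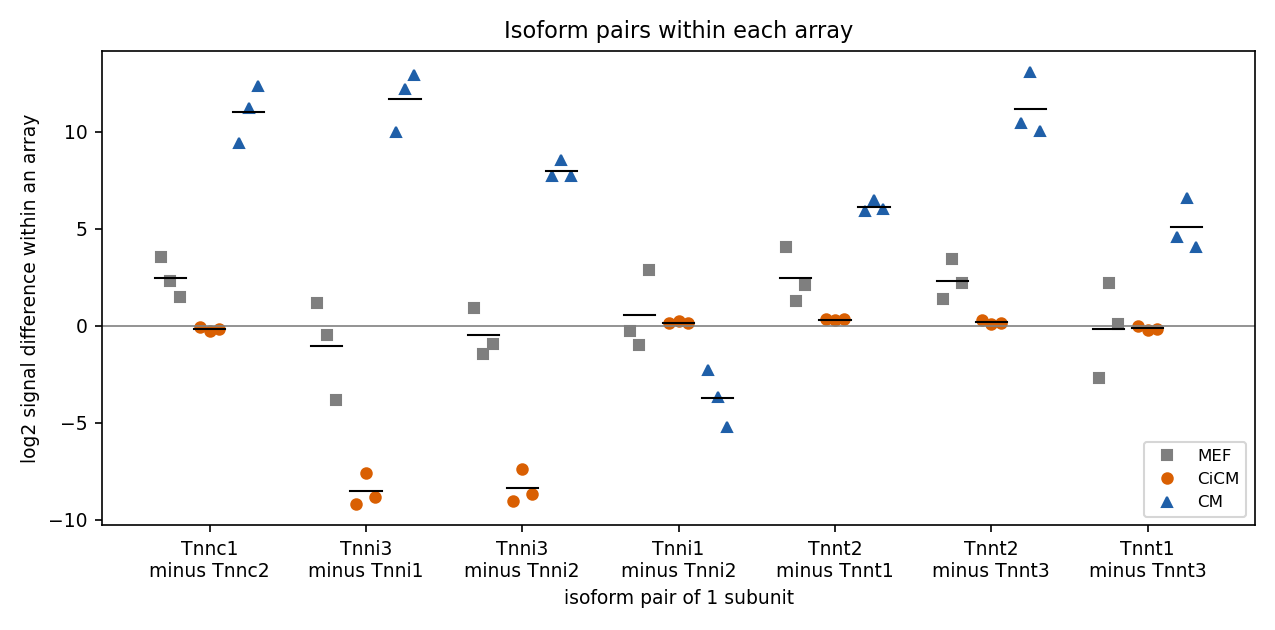
Log2 signal difference between isoforms of 1 subunit within each array (vertical axis) for 7 pairs, with group means as short bars. The CM arrays lie above the MEF and CiCM arrays in every pair except Tnni1 minus Tnni2, where they lie lowest; only the shift between groups is read.

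Troponin I and T genes lie in pairs in the genome, and members of a pair differed in their values here. In RefSeq (GRCm38.p6) Tnni3 and Tnnt1 are direct neighbours, 1 other gene (Lad1) starts between Tnni1 and Tnnt2, and 2 (Lsp1 and Prr33) start between Tnni2 and Tnnt3. Tnni3 was lower in CiCM than in CM by -9.38, while its neighbour Tnnt1 was higher by 4.66. Tnni1 was higher by 10.87 and its partner Tnnt2 lower by -1.15. Tnni2 and Tnnt3 were both higher, by 6.97 and 9.87, although CM exceeded MEF by 3.62 for Tnni2 and not for Tnnt3 (-0.82). Lad1, the gene between Tnni1 and Tnnt2, was at 6.50, 5.71 and 4.84 in MEF, 4.57, 6.72 and 6.74 in CiCM and 10.17, 8.86 and 8.78 in CM. It was thus higher in CM than in MEF by 3.59 (limma adjusted p = 0.000525) and differed by 0.33 between CiCM and MEF (95% interval -1.11 to 1.76, limma adjusted p = 0.701). Lsp1 differed by less than 0.5 in all 3 comparisons.

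Over the 9 arrays, the closest profiles among members belonged to different subunits, as do most pairs that can be formed from the members. Likeness was taken as the root mean square (RMS) difference in log2 signal after each profile was centred on its own mean. Tnnc1 and Tnnt2 were 0.30 apart, Tnnc2 and Tnni1 0.34, Tnni1 and Tnnt3 1.19, Tnnc2 and Tnnt3 1.26, and Tnni2 and Tnnt1 1.33. All MEF and CM values of Tnnc2, Tnni1 and Tnnt3 lay below the median of the table, where the spread between arrays was wide. With 32 added these distances were 0.29, 0.13, 0.44, 0.51 and 0.94, and the same 5 pairs were the closest, with the first and second in reverse order. Tnni3 was at least 3.50 from every other member, or 3.22 with 32 added.

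Which other genes lay nearest depended on how low signals were treated. Only 6 of the 24 nearest genes, 3 for each member, were the same with and without 32 added. These 6 were Actc1 for Tnnt2 (0.34 as deposited, 0.33 with 32 added), Pln for Tnni3 (1.18 and 0.32), Neb for Tnni2 (0.72 and 0.46), Casq1 for Tnnt1 (1.14 and 0.75), Mybph for Tnnt3 (0.92 and 0.33) and Myh3 for Tnni1 (1.52 and 0.50). For Tnnc1 and Tnnc2 no gene was shared. The nearest to Tnnc1 was Fn3k as deposited (0.24), at a MEF mean of 1.73, and Casq2 with 32 added (0.19). The nearest to Tnnc2 was Ryr1 as deposited (0.86) and Myh8 with 32 added (0.47). These distances describe 9 arrays in 3 groups, and share their samples.

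Transcripts of the thin filament partners of troponin moved in both directions or were not called. Of 17 thin filament partners tested for CiCM minus MEF, 8 rose, 2 fell and 7 were not called (median difference 0.87; all genes -0.03), where 11.6% of all genes rose and 12.2% fell. The actin genes Actc1 and Acta1, cardiac and skeletal, were higher by 6.51 and 5.21. Neb, the giant ruler protein of the skeletal thin filament, was higher by 11.18 (7.87 with 32 added), and Nrap, which acts in building myofibrils, by 4.31. Among tropomodulins and leiomodins, which cap or start thin filaments, Tmod1 was higher by 3.57 and Tmod4, Lmod2 and Lmod3 by 8.01, 8.97 and 10.17 (6.45, 6.10 and 6.87 with 32 added). Tmod3 and Tpm4, forms found outside muscle, were lower (-1.21 and -1.13). The tropomyosin genes Tpm1, Tpm2 and Tpm3, whose transcripts serve muscle and other cells through splicing, differed by 0.39, -0.57 and -0.77 and were not called, nor were Tmod2 (-0.79), the smooth muscle gene Lmod1 (-1.15), Nebl (0.87) and Tnni3k (-0.50).

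Against CM, 5 of the 17 partners were higher in CiCM, 6 were lower and 6 were not called (median -0.90), where 16.5% of all genes were higher and 19.0% lower. Higher were Neb (6.42), Acta1 (4.32), Lmod1 (3.04), Tmod4 (2.83) and Tpm2 (2.48). Lower were Nebl (-7.68), the cardiac relative of nebulin, and Tnni3k (-5.44), a heart kinase that takes its name from Tnni3. Actc1 (-1.88), Tmod1 (-1.61), Nrap (-1.60) and Tmod2 (-1.34) were also lower. Some of these sizes rested on low signals. With 32 added, Lmod1 was at 1.94 and Tmod2 at -0.96, under the minimum of 1. Not called were Lmod2 (-1.77, 95% interval -3.80 to 0.26, limma adjusted p = 0.112), Tpm1 (-0.92), Tmod3 (-0.90), Tpm4 (0.93), Tpm3 (0.87) and Lmod3 (0.65). The CiCM and CM arrays did not overlap for Lmod2, whose MEF SD of 2.51 entered its SE of 0.91 through the shared estimate. Nebl was at 5.46 in CiCM, 4.59 in MEF and 13.14 in CM (mean log2 signal). The same 17 genes in CM against MEF gave 10 higher and 4 lower (median 4.76), where 22.1% of all genes were higher and 21.8% lower.

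Genes that mark fibre types outside the thin filament were sorted by the same classes. In CiCM all 12 fast skeletal genes exceeded MEF, and all 12 exceeded CM (median differences 8.71 and 6.86). Against CM, Ryr1, the calcium release channel of skeletal muscle, differed by 10.86, the myosins Myh1 and Myh4 by 9.51 and 9.40, and Actn3 by 9.02. Their order rested on low CM signals, with Ryr1 at a mean of 1.88 in CM. With 32 added the differences were 7.58 for Ryr1, 8.16 for Myh1, 7.96 for Myh4 and 7.72 for Actn3, beside 7.71 for the light chain Mylpf. All 9 genes of slow skeletal and ventricular muscle rose from MEF to CiCM (median 7.72). Against CM, 2 of them were higher and 3 lower (median -1.10), among them Mybpc1 (8.25), a skeletal myosin binding protein, Myh7 (3.15), and the ventricular light chains Myl3 (-6.94) and Myl2 (-1.99). Of 12 heart restricted genes, 4 were called higher in CiCM against MEF (median 0.72) and 12 were lower than in CM (median -6.54). The 4 were Myh6 (4.53), Tbx20 (1.71), Pln (1.25) and Gata4 (1.21), and with 32 added Myh6 alone was above 1, at 2.03 against 0.69, 0.84 and 0.76. Against CM, Kcnip2 differed by -8.96, Ryr2 by -8.95, Pln by -8.79 and Myh6 by -8.58. With 32 added these were -6.23, -8.02, -8.32 and -8.27, and Mybpc3, a cardiac myosin binding protein at -8.26 (-7.75 with 32 added), then lay below Kcnip2. All genes together had a median of -0.03 in each of these comparisons. By the rule for a call, 11.6% of all genes rose for CiCM minus MEF. For CiCM minus CM, 16.5% of all genes rose and 19.0% fell. Among 7 genes listed as skeletal regulators, 5 were tested, and all 5 rose from MEF to CiCM by the rule for a call (median 8.05). They were Myf6 (9.56), Myog (8.56), Mymk (8.05), Myod1 (5.90) and Des (4.40). The first 4 rested on low MEF signals. With 32 added the 5 differences were 6.04, 6.62, 6.52, 4.28 and 4.35. Myf5 and Pax7 fell under the line for testing, at 4.58 and 2.64 in CiCM and 4.48 and 3.73 in MEF (mean log2 signal).

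**Figure D5:**
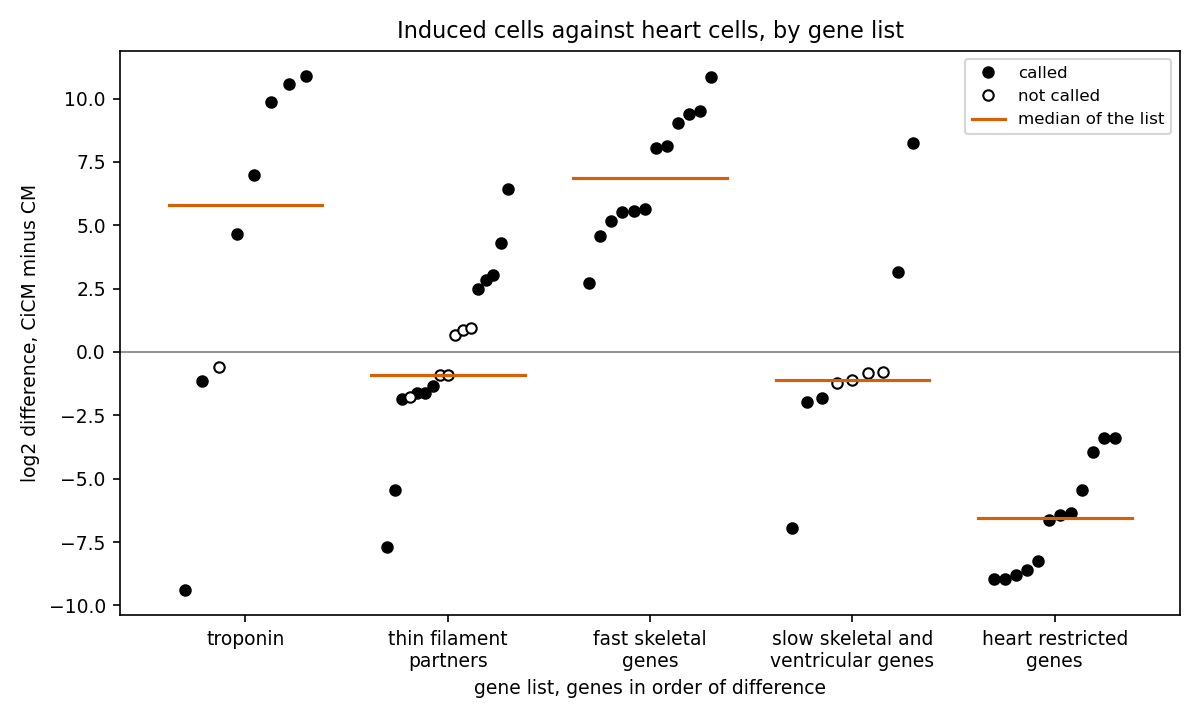
Log2 difference of CiCM minus CM (vertical axis) for each tested gene of 5 lists, in order of the difference; filled points are called, open points are not, and the orange bar is the median of the list. The troponin genes spread from -9.38 to 10.87, the 12 fast skeletal genes lie above 0 and the 12 heart restricted genes below it.

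Markers of other cell types moved with some of these comparisons. Beside the counts below, 12.2% of all genes fell for CiCM minus MEF. For CM minus MEF, 22.1% of all genes rose and 21.8% fell. Of 10 fibroblast markers 8 were not called and 2 were lower in CiCM against MEF, and their summed log2 signal was 16.76 to 16.86 in CiCM, 16.99 to 17.01 in MEF and 14.93 to 15.13 in CM. Of 6 endothelial markers 6 were higher in CM than in MEF (median 5.75), with summed log2 signals of 13.44 to 13.59 in CM, 8.74 to 9.41 in MEF and 7.49 to 7.80 in CiCM. Of the 2 blood markers on the array, Alas2, an enzyme of red cell precursors, was higher in CM than in MEF by 8.03, from a MEF mean of 1.90, or by 4.82 with 32 added. The other, Hba-a1, a globin gene, was at 3.68 in MEF and 4.09 in CM (mean log2 signal) and fell under the line for testing. Of 8 macrophage markers 8 were lower in CiCM and 3 were lower in CM than in MEF, with sums of 11.06 to 11.40 in CiCM, 13.48 to 13.50 in MEF and 13.09 to 13.36 in CM. Of 7 smooth muscle markers, Des, which striated muscle also expresses, was called higher in CiCM than MEF (4.40) and Tagln lower (-1.04), where 11.6% of all genes were called higher and 12.2% lower. The other 5 (Myh11, Acta2, Cnn1, Smtn and Lmod1) were not called, at -0.25 to -1.22. The summed log2 signals of the 7 were 15.38 to 15.55 in CiCM, 15.67 to 15.71 in MEF and 14.34 to 14.73 in CM. The part of these cells in the troponin differences was not tested.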

How the data were processed

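Each of the 9 samples was amplified from the 3′ end, labelled with biotin and read on 1 array, per the labels' protocols. The deposited values are log2 signals of 45101 probe sets; MAS5 is named, with no version, per the submitters' processing notes. The log2 scale was read from the values: trimming 2% of linear signals at either end gave a mean of 500.003 for each array, which is what MAS5's global scaling produces. Nothing was added before testing. Medians were 6.37 to 6.53 in MEF, 6.41 to 6.53 in CiCM and 6.75 to 6.85 in CM. No genome build of the array annotation is given in the sources used here. Detection calls and scan dates were not analysed here.

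Genes were named through GEO's platform annotation; the Entrez identifiers of all 8 members matched RefSeq symbols. Each gene took its probe set of highest mean, and genes whose highest group mean was under 6.58 were left out (5634 of 18193). All 9 arrays entered 1 fit (R 4.3.3, limma 3.58.1: lmFit, then eBayes with trend on; 2-sided; Benjamini-Hochberg over 12559 genes). Isoform shifts were tested by exact permutation, whose smallest p at this size is 0.1. The fit was tested on simulated data. Members and lists were chosen with earlier results of these data known. Named genes were the members, the thin filament partners, up to 4 called genes of each other list, and the 3 nearest profiles of each member. The skeletal regulators as a group, the smooth muscle markers and the atrial markers were named after their values were seen. So were Alas2, Lad1, Lsp1, Hba-a1, Mybpc3, Mylpf, Casq2 and Myh8. Alternatives were 3 constants added to linear signals (1, 32 and a larger one), no filter or one at 8.91, 3 other scalings, averaged or separate probe sets, only the 2 groups compared, no trend, weighted arrays, a call without the minimum, a block on replicate number, and each array left out. Figures were drawn with matplotlib 3.10.9.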

Additional observations from a re-analysis of the deposited data

How the results depend on the processing

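Of 24 gene results (8 genes in 3 comparisons), 17 kept their direction and their side of the threshold under 24 alternatives. CiCM exceeded MEF in all 8 genes in each of them except with the largest constant added, where Tnni3 was not called. Levelling on 9 hybridisation controls shifted the median of all genes by -0.21 for CiCM minus MEF, -0.81 for CM minus MEF and 0.60 for CiCM minus CM; centring on medians shifted the last pair by -0.37 and 0.31. With the controls, troponin genes called lower in CM than in MEF numbered 3 in place of 0, and Tnnc1 in CiCM minus CM reversed to 0.0057. Genes called lower in CiCM than in CM numbered 1 in place of 2 with the controls, with centring and after quantile normalization, since Tnnt2 fell under the minimum. Leaving out each array gave 0 to 2 troponin genes called lower in CM than in MEF, Tnnc2 and Tnni1 without CM replicate 1 and Tnnt3 without CM replicate 3. The other troponin counts were equal in every such fit.

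Over all genes, calls numbered 2987, 5515 and 4462 for CiCM minus MEF, CM minus MEF and CiCM minus CM. With no minimum difference they numbered 6529, 8790 and 8089, and with the largest constant added 1900 for CiCM minus MEF. Higher genes made up 48.6%, 50.4% and 46.5% of calls, against 36.0%, 21.3% and 75.9% with the controls, and 34.6% and 62.9% for the last pair with centring. With the replicate block the call of no troponin gene changed (Tnni3 in CiCM minus MEF: 2.72, limma adjusted p = 0.00838). Deviations of same-numbered arrays correlated at -0.02 to 0.07 across genes, and those of all pairs between groups at -0.04 to 0.07. With 3 arrays a group, these values cannot tell whether the numbers pair the samples. Isoform shifts kept within 1 SD in every fit that left out an array, and 35 of 84 other values moved by more. The profile distances with 32 added were chosen after seeing the data. The fit of separate probe sets gives no count over genes. Signals below the median of the table limit the size of differences against MEF.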
